A study of Mus musculus with 6 samples.

Results

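mmu-miR-191 and mmu-miR-425 are the guide strands of neighbouring microRNA genes that are cut from 1 primary transcript, an intron of Dalrd3. They make up 2 of the 709 miRNA assays on the array and 2 of the 95 with a value in every sample. They were picked by name in the table of U6-normalized values, without the star strands, and were chosen from earlier results on these samples in which miR-191 already stood among the largest differences. Levels and group differences of both are therefore given as descriptions, with no test. The samples were osteoclasts, the cells that resorb bone, sorted with magnetic beads from mouse bone marrow as OSCAR+CTR+ cells. There were 3 samples from mice labelled OCmiR-Intact, controls whose osteoclast miRNAs were intact (here Intact 1 to 3), and 3 from mice labelled OCmiR-KD, with osteoclast miRNAs knocked down (here KD 1 to 3). The allele or agent behind the knockdown, the strain, the age and the sex stand in none of the sources used here. The design text speaks of pooled RNA of 3 mice per group, so the 3 samples of a group may be animals or repeat readings of a pool, and their spread may be technical.

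A miRNA gene is transcribed as part of a longer RNA, from which Drosha cuts a hairpin and Dicer then cuts a duplex of 2 strands. One strand, the guide, is loaded into an Argonaute protein and represses messenger RNAs through its seed, bases 2 to 8, while the other, the star or passenger strand, is mostly degraded. miRNAs cut from 1 transcript start with equal numbers of primary RNA, but processing, loading and decay can set their mature levels apart. miR-191 is present in many tissues and blood cells and has often served as a reference in miRNA PCR. Dalrd3, the host gene, encodes a protein needed for a methyl mark on arginine transfer RNAs.

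The sequences below are shown because they define what each assay can read, and because the members share a transcript but no seed. In the mature strands the seed is in capitals, written 5′ to 3′ as on the array, and all 4 strands of the pair matched RefSeq (GRCm38.p6) by sequence.
miR-191: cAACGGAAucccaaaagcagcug
miR-425: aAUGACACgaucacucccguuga
miR-191*: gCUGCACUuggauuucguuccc
miR-425*: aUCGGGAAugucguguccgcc
miR-489: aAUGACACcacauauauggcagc
The 2 guides are both 23 bases long, with 52.2% G and C in miR-191 and 47.8% in miR-425, and lie 15 single-base edits apart. No other assay on the array carried the seed of miR-191. The seed of miR-425 was shared by 1 other assay, miR-489, which was Null in all 6 samples and differs from miR-425 by 10 edits. The assay nearest to miR-191 was miR-130a at 10 edits, and the one nearest to miR-425 was miR-878-3p at 8 edits, so no close relative of either was on the array.

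Both hairpins lie on the plus strand of chromosome 9 (GRCm38.p6, RefSeq), Mir191 at chr9:108568319-108568392 and Mir425 at chr9:108568777-108568861, with 384 bases between them. The guide of miR-191 takes chr9:108568325-108568347 and that of miR-425 chr9:108568789-108568811, in both cases the 5′ arm. In the hairpins below, read from RefSeq to show where each strand sits, capitals mark the guide first and the star strand after the loop.
Mir191: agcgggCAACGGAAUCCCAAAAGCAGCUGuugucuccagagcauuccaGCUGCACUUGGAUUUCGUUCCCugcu
Mir425: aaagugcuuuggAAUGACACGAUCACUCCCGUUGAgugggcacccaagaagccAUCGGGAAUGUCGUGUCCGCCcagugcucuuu
Both hairpins fall inside the annotated span of Dalrd3, chr9:108567484-108572773, with that of Mir191 beginning 835 bases after the start of the span. The RefSeq table used here gives gene spans, not exons, so the intron is stated as background. The start site that the promoter table holds for Dalrd3, at position 108569892, lies 1031 bases downstream of the Mir425 hairpin, so that window cannot be the start of a transcript that includes the pair, and its sequence is not shown.

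The array measured each miRNA by SYBR Green real-time PCR over 40 cycles. A reading is a threshold cycle (Ct), meaning the point in the run where the dye signal passes a preset line, so that a lower Ct means more template. The level used here is the difference between U6, the spliceosomal RNA that served as reference, and the assay, Ct of U6 minus Ct of the assay within a sample and plate, in log2 units. A level of 0 equals U6, and 1 unit is a factor of 2 if template doubles in each cycle. Assays differ in their primers, so an order of assays by level is one of readings and not of molecules. A limit on the KD values applies throughout. In 88 of the 95 measured assays the 3 KD values, turned to a linear scale against U6 of plate 1, average 1 to within 0.001. miR-191, at 0.9999, and miR-425, at 0.9997, are both among these 88. Such values cannot be independent readings of the KD samples. No source used here says which step produced them.

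In Intact osteoclasts miR-191 stood at 8.04, 8.13 and 8.94 log2 units above U6 in samples 1, 2 and 3. These lie within 0.907 units of each other, with Intact 3 highest. miR-425 stood at 7.55, 4.61 and 6.64 in the same samples. Here Intact 1 was highest and Intact 2 lowest, 2.935 units apart, so the members did not rank the 3 samples alike. The mean was 8.37 ± 0.50 for miR-191 and 6.27 ± 1.50 for miR-425 (SD, n = 3 each). The SD of miR-191 was close to the median of all 95 assays, 0.48, while that of miR-425 was the 88th smallest, among the widest on the array.

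In KD osteoclasts both members stood at U6 in every sample. miR-191 read -0.15, 0.07 and 0.07, a mean of -0.004 ± 0.13 (SD, n = 3), and its values in KD 2 and KD 3 are equal to the last digit. miR-425 read 0.14, 0.04 and -0.20, a mean of -0.01 ± 0.18 (SD, n = 3). No KD value of either member lay more than 0.204 units from U6. This was a narrow band even among assays with a KD mean fixed at U6, whose median SD was 0.77. The members had the 4th and 5th smallest KD SD of the 95 assays, and 6 assays in all kept their 3 KD values within 0.25 units of U6. The others were let-7g, miR-92a, miR-186 and miR-652. Equal levels in KD 2 and KD 3 also occurred in 5 other assays, miR-1, miR-183, miR-185, miR-186 and miR-192, and miR-425 was not one of them.

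**Figure D1:**
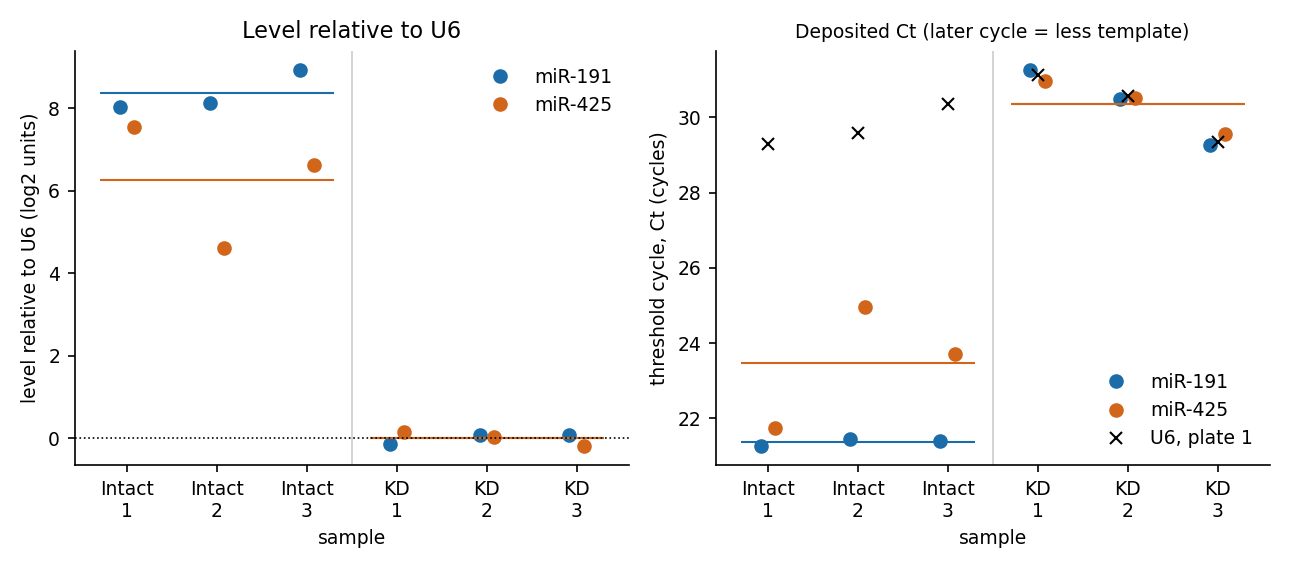
Level relative to U6 in log2 units (left) and deposited Ct in cycles (right) of miR-191 and miR-425 in each of the 3 Intact and 3 KD samples. Points are single samples, lines are means of 3, the dotted line is U6 and crosses are the Ct of U6 on plate 1. miR-191 lies above miR-425 in all 3 Intact samples, and in the KD samples both follow U6.

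The deposited Ct values show where the spread of the levels lies. miR-191 crossed the threshold at 21.3, 21.4 and 21.4 cycles in the Intact samples, an SD of 0.0998 cycles, the 2nd smallest of the 95 assays. U6 on the same plate read 29.3, 29.6 and 30.3 cycles there. The higher level of miR-191 in Intact 3 thus came with a later U6, not with an earlier miR-191. miR-425 read 21.7, 24.96 and 23.7 cycles, a range of 3.22 cycles against 1.06 for U6, so its spread lay in its own assay. In the KD samples U6 read 31.1, 30.6 and 29.3 cycles. miR-191, at 31.3, 30.5 and 29.3 cycles, and miR-425, at 31.0, 30.5 and 29.6 cycles, ran in the same order as U6. That order follows from their KD levels near 0 and is no separate result.

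Both members were lower in the KD values, miR-191 by more. As both linear KD means are fixed at U6, this restates the higher Intact level of miR-191. The sizes below are therefore no measure of unequal loss. The KD minus Intact difference was -8.37 log2 units for miR-191 (SE 0.49) and -6.27 for miR-425 (SE 0.77). In the authors' deposited table the corresponding folds of Intact over KD are 332 for miR-191 and 77.4 for miR-425, the 5th and 21st largest of 95. These match the folds from mean levels. When the values are first averaged on the linear scale, the folds are 345 and 104, so the way of averaging mattered more for miR-425, whose Intact values spread more. All 3 KD values lay below all 3 Intact values for both members, as they did for 82.1% of the 95 assays. In limma, fitted over the 95 assays, 84.2% were lower in KD at an adjusted p under 0.05 and 0 were higher, with 0 higher also at an unadjusted p under 0.05. Every assay that passed as lower had a linear KD mean fixed at U6. The few assays without a fixed KD mean did not pass. Their differences ran only from -0.33 (miR-210) to 0.05 (miR-103). The 84.2% is therefore no measure of a broad loss of miRNAs. Since the members were chosen with the KD against Intact contrast known and their KD means are fixed, their own calls are not given. Leaving out Intact 2 moved the difference of miR-425 to -7.10, and leaving out Intact 1 moved it to -5.63, a factor of over 1.5 in each case. Leaving out any 1 sample moved that of miR-191 only between -8.09 and -8.54.

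Changing the reference from U6 to the other miRNAs made both differences smaller and left the distance between them about as it was. With each sample centred on the mean Ct of its measured miRNAs, the difference was -3.89 for miR-191 (SE 0.50) and -1.79 for miR-425 (SE 0.74). After quantile normalization it was -3.10 for miR-191 (SE 0.65) and -1.20 for miR-425 (SE 0.62). In limma 20% of the 95 assays passed as lower than the mean change when centred and 5.26% after quantile normalization.

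**Figure D2:**
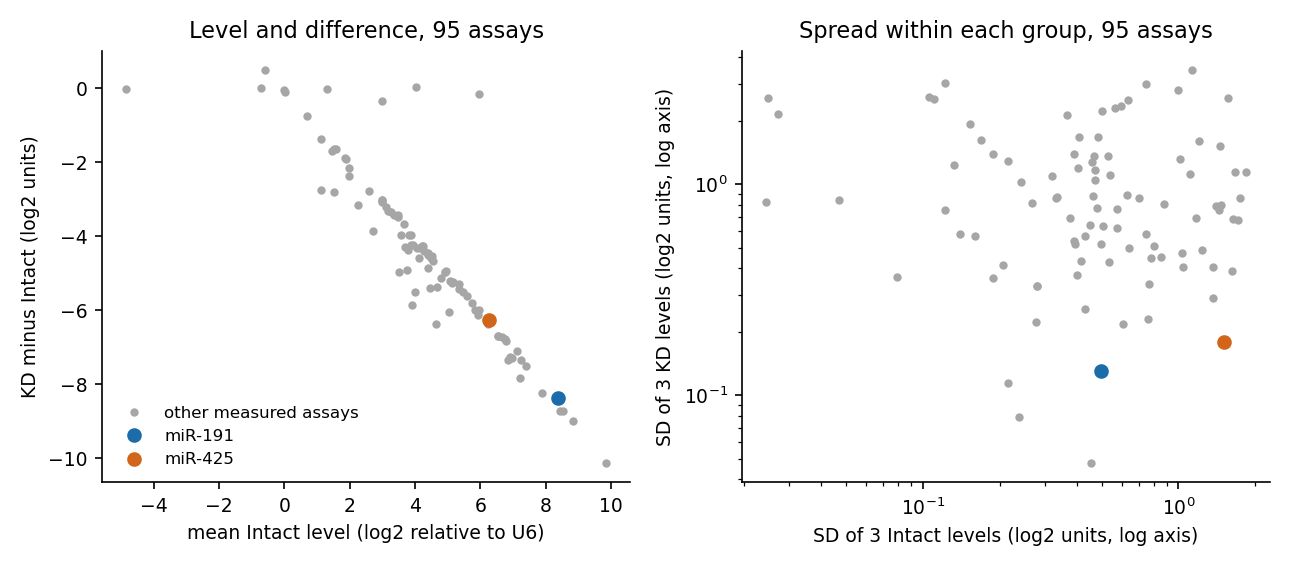
Left, KD minus Intact difference against mean Intact level for the 95 measured assays, both in log2 units relative to U6. Right, SD of the 3 KD levels against SD of the 3 Intact levels, in log2 units on log axes. Coloured points are miR-191 and miR-425, which share a small KD SD (0.13 and 0.18) but not an Intact SD (0.50 and 1.50).

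The difference between the members within a sample does not depend on the reference, since both were on plate 1. In Intact 1 miR-191 stood 0.49 log2 units above miR-425, a ratio of readings of 1.40. In Intact 2 it stood 3.52 units above, a ratio of 11.5, and in Intact 3 2.31 units above, a ratio of 4.95. The order of the members was thus the same in all 3 Intact samples while the size of the gap was not. The mean gap was 2.10 ± 1.53 log2 units (SD, n = 3), or 1.40 without Intact 2 and 2.91 without Intact 1. In the KD samples the gap was -0.30, 0.03 and 0.28, with a mean of 0.004 ± 0.29 (SD, n = 3) and no order that held. This mean gap near 0 and the lack of a set order follow from values already given. Both linear KD means are fixed at U6 and the KD SD of both members is small. The change of the gap, -2.10 log2 units, accordingly equals the Intact gap with its sign turned, and is no measure of unequal loss.

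In the order of mean Intact levels miR-191 was the 5th of 95 assays and miR-425 the 19th. The neighbours of miR-191 were miR-148a, known to promote osteoclast formation, at 8.44 ± 1.11 and miR-151-3p at 7.88 ± 0.39 (SD, n = 3). Both lie within 1 SD of miR-191, so this order is not resolved. The neighbours of miR-425 were let-7b at 6.53 ± 0.05 and miR-574-3p at 6.22 ± 0.02 (SD, n = 3). The place of miR-425 is less settled: the means of 33 assays, itself included, fall between its lowest and highest Intact value, against 4 for miR-191. Sample by sample miR-191 was the 6th, 5th and 2nd highest assay in Intact 1, 2 and 3, and miR-425 the 11th, 42nd and 13th.

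By root mean square difference of level over the 6 samples, the assays nearest to miR-191 were miR-200c (0.85 log2 units), let-7i (0.87), miR-151-3p (0.96), let-7g (0.995) and miR-342-3p (1.00). Those nearest to miR-425 were miR-203 (0.57), miR-99b* (0.80), miR-7a (0.84), miR-183 (0.89) and miR-23a (0.95). The lists have no assay in common. At 1.74 log2 units from each other, the members were not near in this measure: miR-425 was the 19th nearest to miR-191, and miR-191 the 36th nearest to miR-425. As both stood at U6 in the KD samples, this distance largely restates their Intact gap and is no separate result. Pearson's r between the members over the 6 samples was 0.963. This describes the step between the groups that most assays share, since the median r with the 94 other assays was 0.954 for miR-191 and 0.927 for miR-425.

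The star strands of both members were on the array, on plate 2, and both were Null in all 6 samples and in the authors' deposited table of folds. No level or limit can be given for them, because no source used here states the rule for Null. This was the usual outcome. Of 119 star-strand assays 5 had values (4.2%), against 90 of 590 other assays (15.3%). These 5 were all on plate 2, while most of the 90 were on plate 1. The 2 shares therefore do not tell strand and plate apart. Of 33 measured miRNAs whose star strand had its own assay, the star strand was Null for 30. The 3 with a measured star strand were miR-99b, let-7d and miR-106b, whose own Intact levels of 4.21, 3.68 and 3.58 were below those of miR-191 and miR-425, the 5th and 11th highest of the 33. These 3 star strands thus belonged to guides with lower readings than either member. By mean Intact level miR-99b* itself read 6.55, above both miR-99b and miR-425. In contrast, let-7d* (3.18) and miR-106b* (2.71) read below their guides. The remaining measured star strands, miR-140* and miR-872*, had guides that were Null.

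**Figure D3:**
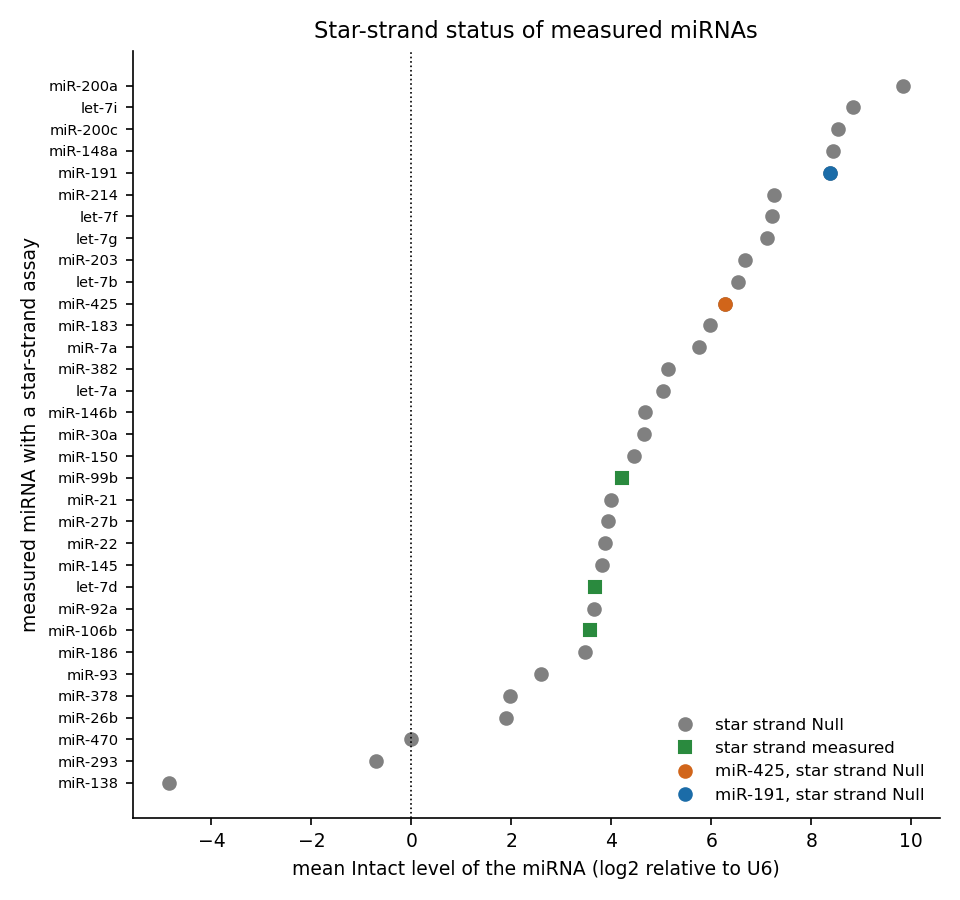
Mean Intact level, in log2 units relative to U6, of the 33 measured miRNAs whose star strand had an assay of its own. Grey circles had a Null star strand, green squares a measured one; miR-191 and miR-425 are coloured, both with a Null star strand, and lie above all 3 squares.

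To see how far co-transcribed miRNAs read alike elsewhere on this array, pairs from known clusters were taken from a fixed list. The list gave 18 measured pairs from 26 assays, with each pair set as the higher minus the lower member in Intact samples. The Intact gap of miR-191 and miR-425, 2.10, was the 9th largest of 18, near the median of 1.87. Gaps ran from 0.23 for let-7a over miR-100 to 6.93 for let-7c over miR-99a. The spread of the gap was wider than in most: its SD of 1.53 was the 5th largest, against a median of 0.64, and against 0.84 over all 4465 pairs of measured assays. The tightest was let-7f over let-7a (SD 0.13), whose sequences are near copies, and the widest was miR-25 over miR-93 (SD 2.63), cut from an intron of Mcm7. In 15 of the 18 pairs, this one included, the order was the same in all 3 Intact samples. In the KD samples that held for 0 of 18, but this count was set beforehand and is no contrast with Intact. The linear KD means of these assays are all fixed at U6. Neither member of a pair could therefore stand clearly above the other in every KD sample. In KD the SD of the miR-191 and miR-425 gap, 0.29, was the smallest of the 18. It follows from the small KD SD of both members and is no separate result. The pairs share members, and 3 of them use miR-24 or miR-199a-3p, whose deposited values are the same in all samples, so they are not independent. Some miRNAs, among them let-7a and let-7c at the ends of the range, belong to several clusters of the list. Their readings may therefore sum several transcripts, and such a gap need not be one within a single transcript.

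**Figure D4:**
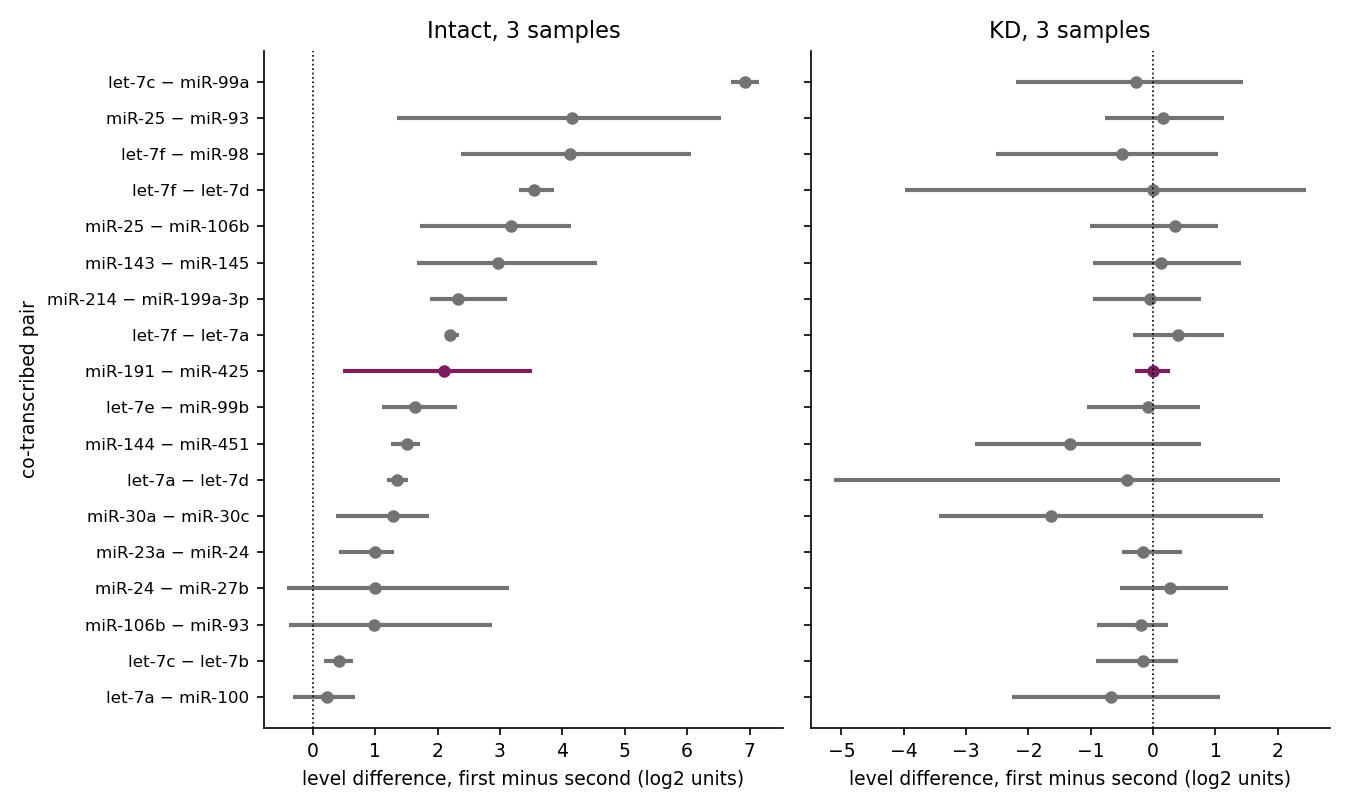
Level difference between the members of 18 co-transcribed miRNA pairs, in log2 units, in Intact (left) and KD (right) samples. Points are means of 3 samples and bars run from the lowest to the highest sample. The pair miR-191 minus miR-425, in purple, has a mean of 2.10 in Intact and 0.004 in KD samples. Its spread of gaps in KD is the narrowest by SD, which follows from the small KD SD of both members.

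Among miRNAs in introns of protein-coding genes, 20 of 46 listed assays were measured. Of these 15 passed as lower in KD in limma, 0 as higher and 5 did not pass, where 84.2% of all 95 assays passed as lower. All 15 had a linear KD mean fixed at U6, as had every other assay that passed as lower. The median difference of the 20 was -3.71, against -4.54 over all 95 assays. miR-191 had the largest difference of the 20, followed by miR-151-3p of Ptk2 (-8.25) and miR-342-3p of Evl (-7.52), and miR-425 was the 6th. At the other end stood miR-103 of Pank2 and Pank3 (0.05) and miR-486 of Ank1 (0.49), both without passing. By Intact level miR-191 was the highest of the 20 and miR-425 the 6th. This is no separate result, since with a linear KD mean fixed at U6 the difference largely restates the Intact level. The KD mean of miR-103 is not fixed in this way: with an Intact level of 4.03, it read 4.08 in KD samples.

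The sorting markers OSCAR and CTR are proteins and are not read by a miRNA array. Of 6 assays for miRNAs of myeloid and osteoclast-lineage cells, miR-21, miR-142-5p and miR-223 were measured and miR-142-3p, miR-146a and miR-155 were Null. The summed linear level of the measured 3, with U6 as 1, ranged from 49.4 to 115 in Intact and from 0.96 to 6.54 in KD samples. Of 24 assays for miRNAs of erythroid, lymphoid, endothelial, stromal, epithelial, muscle and liver cells 16 were measured. Of these 14 passed as lower in KD, a share near the 84.2% of all 95 assays. The summed level of the 16 ranged from 1551 to 2449 in Intact and from 13.5 to 20.3 in KD samples. Most of the Intact sum came from 3 epithelial assays, miR-200a, miR-200c and miR-203, at 1125 to 1758, while miR-141, miR-200b and miR-429 of the same list were Null. The 4 stromal assays summed to 223 to 430 in Intact, the 2 lymphoid ones to 23.7 to 26.9 and the 3 erythroid ones to 14.9 to 17.2. The 1 liver assay, miR-122, read 103 to 131 in Intact, a range that overlaps that of the myeloid and osteoclast-lineage sum. The 1 measured endothelial assay, miR-126-3p, read 9.08 to 43.8, and the 2 measured muscle ones summed to 8.34 to 52.2. The linear KD mean of all these assays is fixed at U6. This sets the average of their KD sums over the 3 samples near the number of assays, but not the sum in each sample. The part of such cells in the members' levels was not tested. miR-191 and miR-425 are not known as markers of any of these cell types.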

How the data were processed

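Per the labels' protocols, Trizol RNA was copied with QuantiMir reagents and run on a ViiA7 cycler. The authors deposited Ct values for 717 wells, delta Ct values on a log2 scale (Ct minus U6 Ct) for 709 assays, and a ratio table of folds of Intact over KD. Ct minus delta Ct equalled the Ct of 1 well per plate, read here as U6, in every sample. No source used here states the Null rule or the Ct threshold. Well names of 48 assays, turned into numbers by a spreadsheet, were restored.

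Level is minus delta Ct. Assays with a Ct under 35 in at least 3 samples, all 95 with values, were fitted with limma 3.58.1 in R 4.3.3 (KD against Intact, two-sided, Benjamini-Hochberg over 95, threshold 0.05); the step was tested on simulated data. The SE comes from that fit. The number of samples limits the precision; the median residual SD was 0.82. Named miRNAs are the members, their star strands and seed sharers, the 5 nearest assays to each by root mean square difference, neighbours in Intact level, the closest and widest co-transcribed pairs, and markers; others were named after their values were seen. The members and lists were chosen with earlier results of these data known. Array sequences of 542 of the 709 assays matched a RefSeq mature strand.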

Additional observations from a re-analysis of the deposited data

How the results depend on the processing

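The KD minus Intact difference of miR-191 was -8.98 on raw Ct without a reference, -8.84 relative to the 4 unnamed control wells (an alternative added after seeing the data), -3.89 when centred on the measured miRNAs and -3.10 after quantile normalization. For miR-425 it was -1.79 when centred and -1.20 after quantile normalization. With U6 averaged over both plates it was -8.25 and -6.15. Leaving out 1 sample gave -8.54 to -8.09 for miR-191, -7.10 to -5.63 for miR-425, 1.40 to 2.91 for their Intact gap, -0.13 to 0.15 for their KD gap and -2.91 to -1.39 for the change of the gap. The count of assays lower in KD, 80, became 19 when centred and 5 after quantile normalization, and that of assays higher, 0, became 19 and 8 (limma in each case); it was 75 to 81 lower without 1 sample, with 0 higher.

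With the replicate number as a replicate block the differences were equal, -8.37 and -6.27, and 82 assays passed as lower. The numbers were not taken to pair the samples: deviations of same-numbered samples correlated only at 0.025, 0.101 and 0.081 over the 95 assays. Differently numbered samples ran from -0.085 to 0.027, so 0.101 and 0.081 were the highest values, though small. Intact 2 matched KD 1 (0.027) slightly better than Intact 1 did. Fixed KD means and 3 samples a group limit every value here.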
